A study of Mus musculus with 12 samples.

Results

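The RUNX family and its core binding partners were followed across mouse bone marrow populations that carried mutations of CBL, RUNX1 or both. The set has 8 genes of the 28987 in the deposited table, chosen by name for their roles. These are the DNA-binding subunits Runx1, Runx2 and Runx3, their partner subunit Cbfb, the ETO family corepressors Runx1t1, Cbfa2t2 and Cbfa2t3, and the Groucho corepressor Tle3. Messenger RNA was sequenced in 12 libraries from C57BL/6 mice, with 2 libraries in each of 6 groups. Stem and progenitor cells of blood (HSPC), enriched by CD117 selection, came from CBL/RUNX1 mutant mice (double mutant below), RUNX1 mutant mice, CBL mutant mice and wild type mice. Ly6G+ myeloid cells, a neutrophil population, came from double mutant and wild type mice. The marrow came from individual mice, and the labels' protocols say that the mutant clone was sorted by FACS. The age of the mice, the alleles, the way in which the mutations were introduced and the mice that each replicate number stands for are not given in the sources used here. Preparation of mutant and wild type cells and the effect of the mutations therefore cannot be told apart. The values of Runx1 may include an introduced sequence, because the deposited table does not separate one from the endogenous gene.

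RUNX proteins bind DNA through the Runt domain and need CBFβ, the product of Cbfb, which does not touch DNA itself but raises the affinity of the complex. In blood formation, RUNX1 is required for the first stem cells and acts in megakaryocytes, lymphocytes and granulocyte precursors, RUNX3 is best known in T cells and natural killer cells, and RUNX2 is best known as the master factor of bone and is also high in plasmacytoid dendritic cells. The same complex can activate or repress, depending on whether coactivators or corepressors of the Groucho and ETO families are recruited. CBL is a ubiquitin ligase that limits signalling by receptors such as KIT.

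Values below are TPM, the length-corrected share of a gene in a library's transcripts. The deposited TPM give no read numbers, so the depth behind them is unknown. Fold changes are log2 differences of TPM + 1 after scaling between libraries, with the SE of a limma fit over all genes, and a gene is called when its adjusted p (Benjamini-Hochberg over all genes tested) is under 0.05. Of the 8 genes, 7 passed the filter of 1 TPM or more in at least 2 libraries of a fit, and Runx1t1 did not and was not tested. The replicates of 4 groups differed from each other with an SD of 0.301 to 0.376 on the log2 scale over genes. This SD was 0.709 in RUNX1 mutant HSPC and 0.998 in double mutant Ly6G+ cells, and a difference between 2 libraries does not show which of them is unusual. The replicate 1 library of each of these 2 groups is called the one that stands apart for its markers, a choice made after seeing the data. In RUNX1 mutant HSPC it had 1420 TPM of mast cell and basophil markers, against 150 TPM in its replicate. Of that sum 1181 TPM was Cpa3. Fcer1a and Ms4a2 were also higher than in the replicate, while Mcpt8 (26.8 against 37.1 TPM) and Prss34 (13.4 against 41.9 TPM) were lower. The same library differed in HSPC (1054 against 212 TPM), megakaryocyte (472 against 73.3 TPM) and neutrophil markers (143130 against 307800 TPM). In double mutant Ly6G+ cells the replicate 1 library had 85116 TPM of neutrophil markers, against 311090 TPM in its replicate. The 6 defining HSPC markers were all at 1 TPM or more in every HSPC library. All 6 were so in both double mutant Ly6G+ libraries too, and 5 in each wild type Ly6G+ library. Their presence at this level therefore does not separate the populations. Neutrophil markers were also present in every library. Their summed level was lower in double mutant HSPC (86849 and 98819 TPM) than in wild type HSPC (320320 and 345520 TPM).

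The 3 RUNX genes lie on different chromosomes and share a sequence near their most upstream RefSeq start. In the GRCm38 annotation, Runx1 lies at chr16:92601466-92826149 on the minus strand, Runx2 at chr17:44495987-44814797 on the minus strand and Runx3 at chr4:135120652-135177990 on the plus strand. The stretches below are shown because they hold the letters that the 3 genes have in common near those starts. They were read from RefSeq promoter windows (GRCm38.p6, 250 bases before to 50 after each start) on the strand of the gene. Capitals mark the shared run of 18 bases, which holds the RUNX core hexamer ACCACA on the same strand in a tandem pair with 2 bases between.
Runx1, chr16:92826025-92826054: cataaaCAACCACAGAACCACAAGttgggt
Runx2, chr17:44814583-44814612: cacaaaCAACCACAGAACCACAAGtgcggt
Runx3, chr4:135120503-135120532: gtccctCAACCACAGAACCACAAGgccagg
The run begins 27 bases after the RefSeq start in Runx1, 22 after it in Runx2 and 136 before it in Runx3. These RefSeq starts differ from the outer ends of the gene positions given above. The core hexamer, searched on both strands, is in 5506 of the 32851 RefSeq windows of this length (16.8%), the tandem pair ACCACANNACCACA is in 7 (0.0213%) and the whole run is in 4 (0.0122%). These 4 are the 3 RUNX windows and that of the predicted gene Gm16225, whose window overlaps that of Runx3. The motif was chosen after the sequences were seen. No core hexamer was found in the other 7 windows of the set, which belong to Cbfb, Cbfa2t2, Cbfa2t3, Tle3 and the second starts of Runx1 and Runx3. A match describes letters and is not evidence that a protein binds there, and no binding was measured in these samples.

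Runx1, the RUNX gene targeted in the mutants, was high in the double mutant in both populations and in the RUNX1 mutant, and low elsewhere. Runx1 had 257 and 248 TPM in double mutant HSPC, 170.2 and 45.3 TPM in RUNX1 mutant HSPC, 12.2 and 16.4 TPM in CBL mutant HSPC, and 12.7 and 11.3 TPM in wild type HSPC. In Ly6G+ cells it had 126 and 142 TPM in the double mutant, against 11.1 and 8.77 TPM in wild type. Every library of a RUNX1-mutated group lay above every other library, and the replicates of RUNX1 mutant HSPC were far apart. Among all 28987 genes, Runx1 stood at rank 456 and 479 in the double mutant HSPC libraries, against 5504 and 5418 in the wild type ones. The order of the groups by mean was double mutant HSPC, double mutant Ly6G+ cells, RUNX1 mutant HSPC, CBL mutant HSPC, wild type HSPC and wild type Ly6G+ cells. The second and the next in that order overlapped, as did CBL mutant and wild type HSPC.

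Runx3 followed nearly the same pattern, although the labels name no mutation in it. Runx3 had 304 and 284 TPM in double mutant HSPC, 173 and 42.4 TPM in RUNX1 mutant HSPC, 31.04 and 32.6 TPM in CBL mutant HSPC, and 14.9 and 10.7 TPM in wild type HSPC. In Ly6G+ cells it had 143 and 147 TPM in the double mutant, against 5.59 and 5.29 TPM in wild type. The 4 double mutant libraries lay above all wild type libraries, and both CBL mutant libraries lay above both wild type HSPC libraries without overlap. Its rank was 384 and 411 in double mutant HSPC, against 5012 and 5575 in wild type HSPC. By mean, the order was double mutant HSPC, double mutant Ly6G+ cells, RUNX1 mutant HSPC, CBL mutant HSPC, wild type HSPC and wild type Ly6G+ cells, and only double mutant Ly6G+ cells and RUNX1 mutant HSPC overlapped among neighbours.

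Runx2 took a different course, with its highest value in 1 library. Runx2 had 30.2 and 27.7 TPM in double mutant HSPC, 43.2 and 16.2 TPM in RUNX1 mutant HSPC, 12.4 and 15.6 TPM in CBL mutant HSPC, and 8.95 and 6.71 TPM in wild type HSPC. Among Ly6G+ cells, double mutant libraries had 133 and 18.0 TPM, against 17.0 and 15.7 TPM in wild type. Within HSPC each mutant group lay above wild type without overlap, whereas in Ly6G+ cells only the replicate 1 library of the double mutant stood far from the rest. That library also had the highest summed level of the 6 dendritic cell markers, at 1138 TPM, against 127 TPM in its replicate and 57.7 and 49.6 TPM in wild type Ly6G+ cells. Their part in the Runx2 value was not tested. Runx2os1, an annotated gene on the opposite strand that overlaps Runx2, had 11.9 and 10.0 TPM in double mutant HSPC and 1.71 and 1.83 TPM in wild type HSPC. Use of strand in the counting is not given in the sources used here, so reads of Runx2 and of its antisense partner cannot be told apart.

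**Figure D1:**
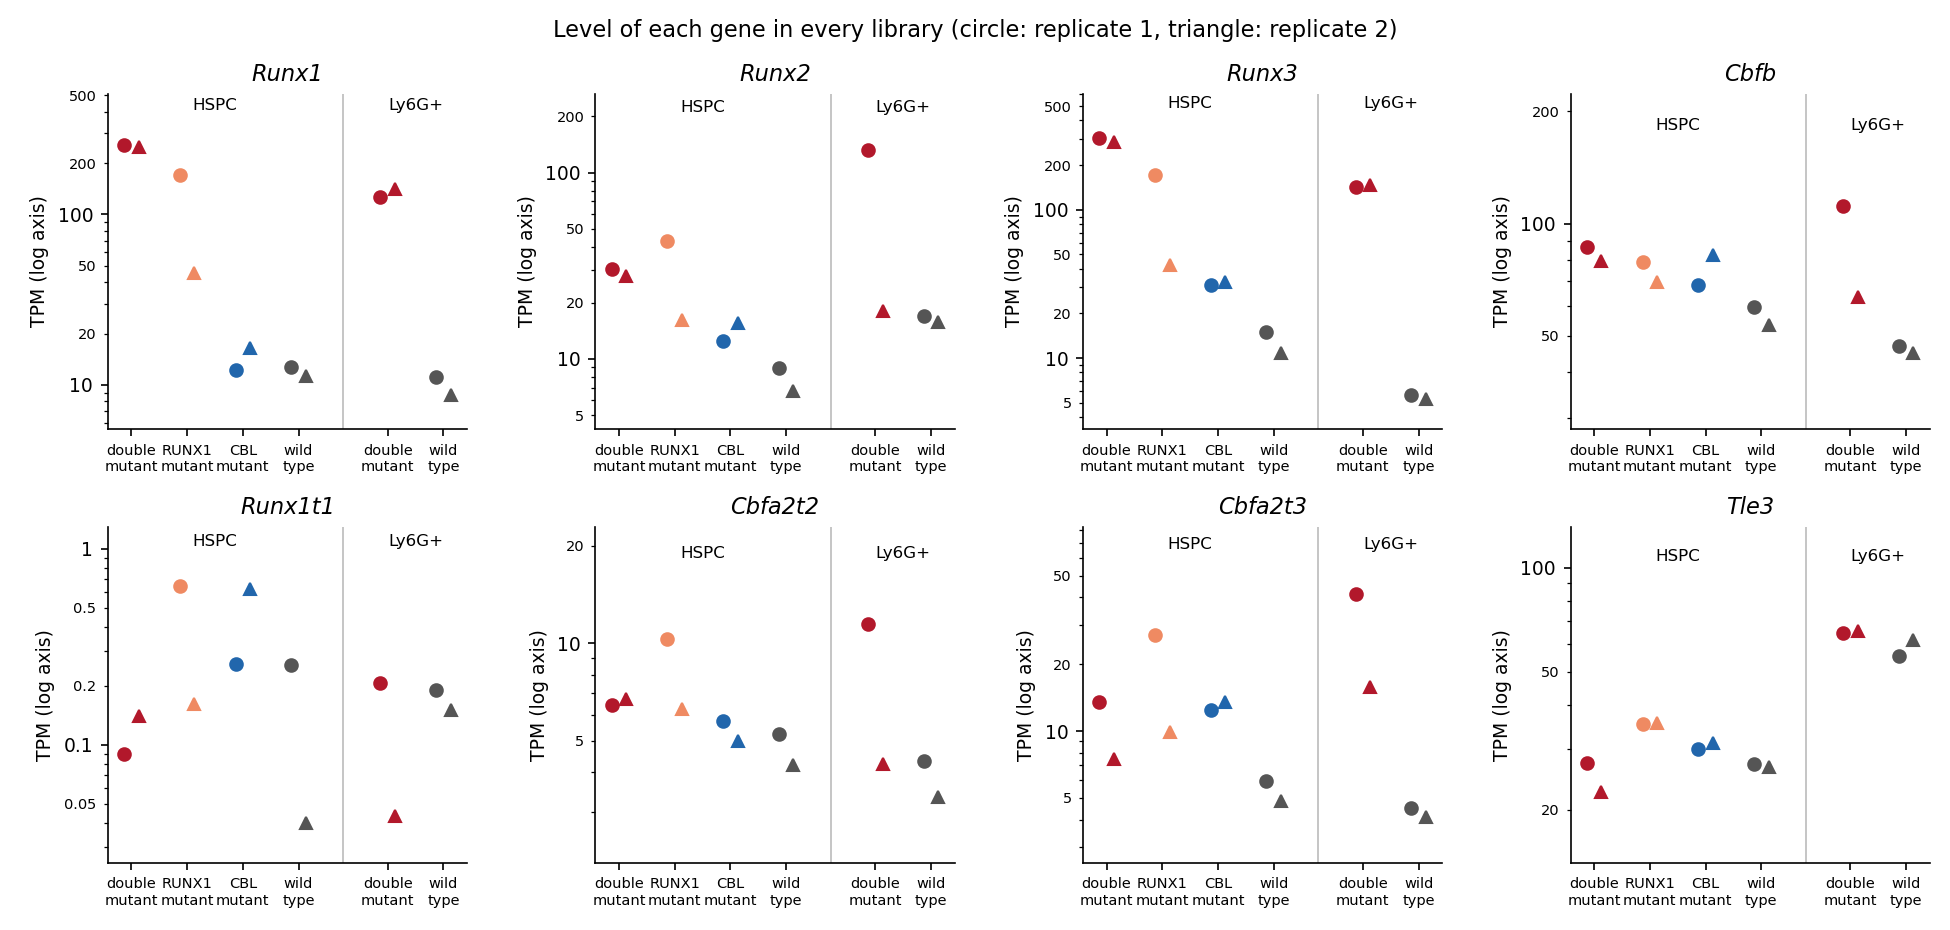
Level of each of the 8 genes in TPM (log axis) in every library, HSPC to the left and Ly6G+ cells to the right of the line, with circles for replicate 1 and triangles for replicate 2. Runx1 and Runx3 lie between 126 and 304 TPM in the 4 double mutant libraries, and Tle3 is the gene that separates the populations.

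Cbfb, which encodes the shared partner subunit, differed far less than the genes of the DNA-binding subunits. Cbfb had 86.3 and 79.2 TPM in double mutant HSPC, 78.9 and 69.7 TPM in RUNX1 mutant HSPC, 68.5 and 82.5 TPM in CBL mutant HSPC, and 59.5 and 53.6 TPM in wild type HSPC. Double mutant Ly6G+ cells had 112 and 63.5 TPM of Cbfb, against 47.0 and 44.9 TPM in wild type Ly6G+ cells. The unscaled values were higher in every mutant library than in the wild type libraries of the same population. After scaling between libraries, Cbfb had 69.8 and 70.6 in double mutant HSPC and 72.5 and 76.5 in wild type HSPC. The direction of Cbfb thus depended on the scaling, at a log2 difference of -0.08 ± 0.15 (SE, adjusted p = 0.728) in double mutant against wild type HSPC, and 0.54 (adjusted p = 0.0392) on unscaled TPM. Leaving TPM unscaled also moved the median of all genes in that comparison to 0.56, against 0.02 with scaling, so that Cbfb lay near the median gene either way.

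The amount of RUNX mRNA per Cbfb mRNA separated the groups by RUNX1 mutation. The summed TPM of Runx1, Runx2 and Runx3 divided by that of Cbfb was 6.85 and 7.06 in double mutant HSPC, 4.89 and 1.49 in RUNX1 mutant HSPC, 0.812 and 0.783 in CBL mutant HSPC, and 0.614 and 0.537 in wild type HSPC. In Ly6G+ cells it was 3.59 and 4.83 in the double mutant, against 0.719 and 0.663 in wild type. All libraries of RUNX1-mutated groups were above 1, and all others were below 1. A ratio within a library does not depend on the scaling between libraries, and it says nothing of protein.

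The makeup of the RUNX mRNA differed as well. In double mutant HSPC Runx2 made up 5.12% and 4.95% of the summed RUNX TPM, with Runx1 at 43.4% and 44.3% and Runx3 at 51.4% and 50.8%. In wild type HSPC Runx2 made up 24.5% and 23.3%, and Runx3 40.7% and 37.4%. The double mutant Ly6G+ libraries differed from each other, with Runx2 at 33.1% in replicate 1 and 5.87% in replicate 2. In wild type Ly6G+ cells Runx2 was the largest share at 50.5% and 52.7%, and Runx3 made up 16.6% and 17.8%. The Runx3 to Runx1 ratio was 1.18 and 1.15 in double mutant HSPC, 1.01 and 0.934 in RUNX1 mutant HSPC and 1.17 and 0.952 in wild type HSPC, while CBL mutant HSPC stood above these at 2.54 and 1.99. In Ly6G+ cells the same ratio was 1.13 and 1.04 in the double mutant, against 0.502 and 0.604 in wild type.

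**Figure D2:**
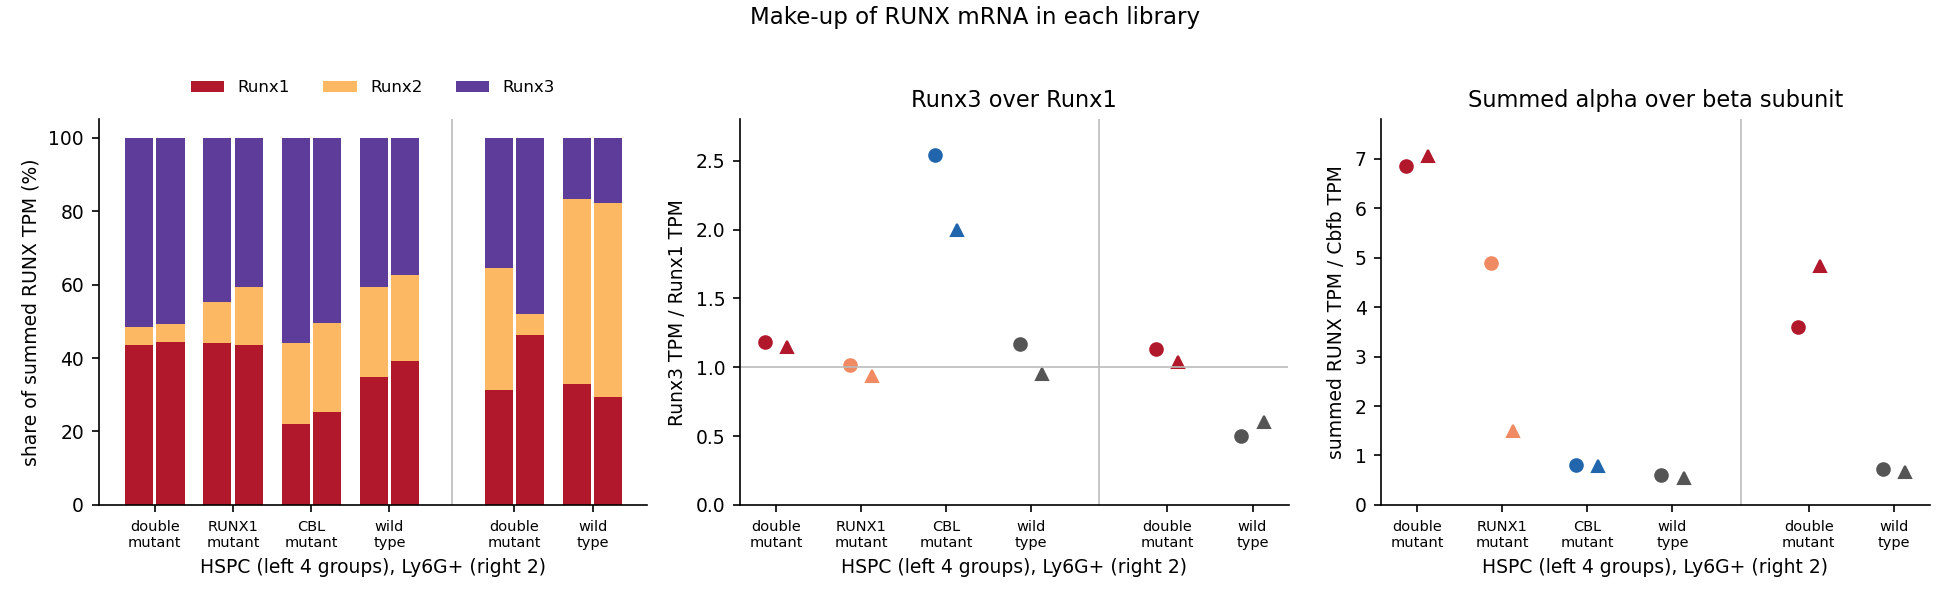
Makeup of the RUNX mRNA by library, as the share of Runx1, Runx2 and Runx3 in their summed TPM (percent, replicate 1 left of replicate 2), as Runx3 TPM over Runx1 TPM and as summed RUNX TPM over Cbfb TPM. The last ratio reaches 7.06 in double mutant HSPC and lies below 1 in all wild type and CBL mutant libraries.

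Among the ETO family corepressors, Cbfa2t3 varied most. Cbfa2t3 encodes ETO2, which joins TAL1 and GATA complexes in erythroid and megakaryocyte precursors. It had 13.5 and 7.46 TPM in double mutant HSPC, 27.1 and 9.91 TPM in RUNX1 mutant HSPC, 12.4 and 13.5 TPM in CBL mutant HSPC, and 5.94 and 4.84 TPM in wild type HSPC. In Ly6G+ cells Cbfa2t3 had 41.3 and 15.7 TPM in the double mutant, against 4.49 and 4.09 TPM in wild type. On unscaled TPM, every mutant library exceeded the wild type libraries of its population, and both libraries that stand apart gave the higher value of their pair. After scaling, the replicate 2 library of double mutant HSPC had 6.64, below both wild type HSPC libraries at 7.23 and 6.91. Cbfa2t2, which encodes MTGR1, had 6.46 and 6.71 TPM in double mutant HSPC, 10.3 and 6.28 TPM in RUNX1 mutant HSPC, 5.74 and 4.995 TPM in CBL mutant HSPC, and 5.25 and 4.21 TPM in wild type HSPC. Its Ly6G+ values were 11.4 and 4.22 TPM for the double mutant, against 4.32 and 3.36 TPM for wild type, and these groups overlapped. Runx1t1, which encodes ETO and is joined to RUNX1 by a translocation in human leukaemia, lay between 0.0401 and 0.646 TPM in all 12 libraries. Levels this low give no order of the groups. The summed TPM of the 3 ETO family genes, divided by that of the 3 RUNX genes, was 0.0339 and 0.0256 in double mutant HSPC, against 0.313 and 0.316 in wild type HSPC. In Ly6G+ cells that ratio was 0.132 and 0.0650 in the double mutant, against 0.267 and 0.255 in wild type.

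Tle3 encodes a Groucho corepressor that RUNX proteins recruit through their C-terminal motif. Tle3 had 27.3 and 22.5 TPM in double mutant HSPC, 35.3 and 35.7 TPM in RUNX1 mutant HSPC, 29.9 and 31.2 TPM in CBL mutant HSPC, and 27.1 and 26.5 TPM in wild type HSPC. Ly6G+ cells of the double mutant had 64.7 and 65.5 TPM, against 55.6 and 61.9 TPM in wild type. Every Ly6G+ library lay above every HSPC library. On unscaled TPM, double mutant and wild type HSPC overlapped, and both single mutants lay above wild type. After scaling, it had 22.1 and 20.0 in double mutant HSPC and 33.0 and 37.9 in wild type HSPC, without overlap.

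Double mutant HSPC were set against wild type HSPC to see how these genes stand when both mutations are present. Runx1, Runx3 and Runx2 rose and Tle3 fell, which is 4 of the 7 genes tested, while 11.1% of all genes tested were called. The log2 fold change was 3.68 ± 0.40 for Runx1 (SE, limma, adjusted p = 0.00902) and 3.82 ± 0.42 for Runx3 (adjusted p = 0.00902). Runx2 had 1.19 ± 0.27 (adjusted p = 0.0416) and Tle3 -0.72 ± 0.18 (adjusted p = 0.0467), and with no filter on low values neither was called (adjusted p = 0.0816 and 0.0865). Cbfa2t3 had 0.24 ± 0.32 (adjusted p = 0.630), and Cbfa2t2 had -0.13 (adjusted p = 0.623). On unscaled TPM the RUNX genes kept their direction and were called, at 4.29 for Runx1, 4.43 for Runx3 and 1.77 for Runx2, while Tle3 had -0.11 (adjusted p = 0.642) and Cbfa2t2 turned to 0.41.

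The calls of Runx1 and Runx3 needed both libraries of each compared group, whereas the sizes of the changes varied little. Leaving out either wild type or either double mutant HSPC library ended all 4 calls, with adjusted p between 0.0665 and 0.122 for Runx1 and between 0.0700 and 0.126 for Runx3, while the log2 fold change stayed between 3.63 and 3.74 for Runx1 and between 3.71 and 3.94 for Runx3. Runx2 and Tle3 also missed the threshold without either CBL mutant library, at adjusted p = 0.0746 and 0.0747 for Runx2 and 0.0860 and 0.0931 for Tle3. With the replicate number as a block, Runx2 had an adjusted p of 0.0503. Without RUNX1 mutant replicate 1 or 2, whose values were far apart, Runx1 had 3.69 and 3.679, and Runx3 had 3.836 and 3.825.

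Several cell type markers differed in the same comparison, beside the neutrophil markers given above. The summed level of the 6 HSPC markers was 518 and 392 TPM in double mutant HSPC, against 127 and 113 TPM in wild type HSPC. That of the 6 natural killer and cytotoxic markers was 9.61 and 9.36 TPM, against 179.6 and 181 TPM in wild type, and in each of these libraries Nkg7 was the 1 gene of the 6 to reach 1 TPM. That of the 6 T cell markers was 3.25 and 2.29 TPM with Cd3e and Cd3g at 0 in both double mutant libraries, against 3.45 and 3.89 TPM in wild type, with 1 or 2 of the 6 genes at 1 TPM or more. B cell and plasma cell markers summed to 30.95 and 24.1 TPM in double mutant HSPC, against 1251 and 1179 TPM in wild type HSPC. Jchain was most of that wild type sum, at 1204 and 1138 TPM. Cd79b went the other way, with 23.4 and 22.6 TPM in double mutant HSPC, against 16.1 and 15.5 TPM in wild type. Megakaryocyte markers summed to 119.5 and 67.8 TPM, against 29.8 and 28.5 TPM in wild type, but their member Gp1bb had 0.865 and 0.915 TPM, against 5.22 and 4.78 TPM. Mast cell and basophil markers summed to 162 and 129.9 TPM, against 45.8 and 44.8 TPM in wild type. Cpa3 was the largest part of the double mutant sum, at 89.25 and 72.45 TPM, while Fcer1a had 0.384 and 0 TPM, against 5.64 and 5.61 TPM in wild type. Fewer cells of a type and less RNA per cell cannot be told apart in these bulk samples, and the part of the cells behind these markers in the RUNX changes was not tested.

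**Figure D3:**
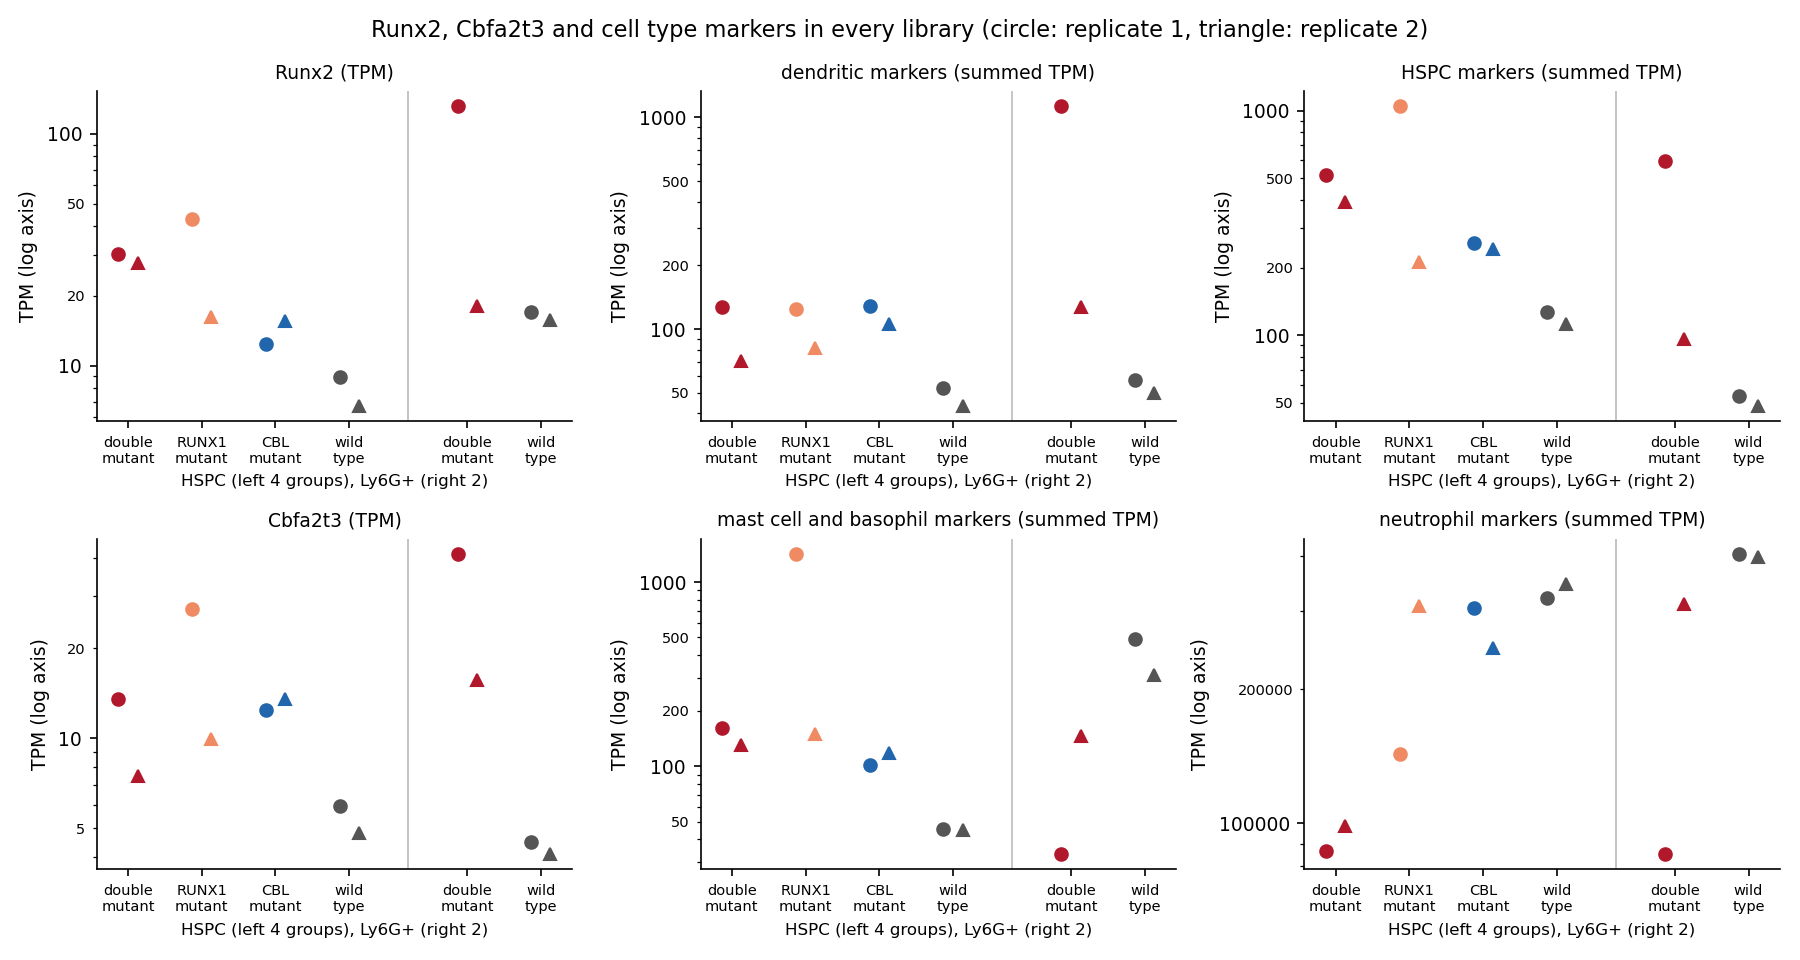
Runx2, Cbfa2t3 and the summed TPM of 4 marker lists by library (log axes), with circles for replicate 1 and triangles for replicate 2. Neutrophil markers are present in every library, HSPC included, and dendritic markers peak at 1138 TPM in the replicate 1 library of double mutant Ly6G+ cells.

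The comparisons with single mutants separated the 2 mutations. In RUNX1 mutant against wild type HSPC, limma called 0 of the 7 genes at an adjusted p under 0.05, while 4 were under an unadjusted p of 0.05. Of all 12421 genes tested, 0.0483% were called and 2052 were under an unadjusted p of 0.05. The log2 fold change of Runx1 was 2.26 ± 0.40 (SE, adjusted p = 0.143) and that of Runx3 was 2.14 ± 0.42 (adjusted p = 0.166), and both libraries exceeded both wild type libraries for each gene. With either RUNX1 mutant library alone the direction was the same. Without replicate 1, Runx1 had 1.57 and Runx3 1.40. Without replicate 2, Runx1 had 2.95 and Runx3 2.90. Tests in these fits assume that the remaining library varies like the other groups, so only the sizes are given. The replicate 1 library also had 1420 TPM summed over the 5 mast cell and basophil markers, against 150 TPM in its replicate. Most of that sum was Cpa3, at 1181 TPM, and the part of the cells that express it was not tested.

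In CBL mutant against wild type HSPC, limma called 0 of the 7 genes, 1 was under an unadjusted p of 0.05, as were 1338 of the 12421 genes tested, and 0.556% of all genes tested were called. Runx1 had -0.16 ± 0.40 (SE, adjusted p = 0.881), and its direction turned to 0.22 on unscaled TPM. Runx3 had 0.88 ± 0.42 (adjusted p = 0.513). It was called without either RUNX1 mutant library, at 0.89 (adjusted p = 0.00864) without replicate 1 and 0.88 (adjusted p = 0.00952) without replicate 2. The T cell markers summed to 39.6 and 24.8 TPM in CBL mutant HSPC, against 3.45 and 3.89 TPM in wild type HSPC, in the same libraries in which Runx3 was at 31.04 and 32.6 TPM. Most of that sum was Lck, at 35.9 and 20.7 TPM, while Cd3d was at 1.74 and 1.89 TPM in CBL mutant HSPC, against 1.001 and 0.901 TPM in wild type HSPC. Cd3g and Cd8a were also higher in the CBL mutant, and Cd4 overlapped between the groups. Cd3e went the other way, at 0.0409 and 0.0388 TPM in CBL mutant HSPC, against 0.217 and 0.147 TPM in wild type HSPC. The part of the cells behind these markers in the Runx3 value was not tested.

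In double mutant against CBL mutant HSPC, which differ by the RUNX1 mutation, Runx1 and Runx3 rose, 2 of 7 genes against 3.67% of all genes tested. Runx1 had 3.84 ± 0.40 (SE, limma, adjusted p = 0.00852) and Runx3 2.95 ± 0.42 (adjusted p = 0.0209). Both calls ended without either CBL mutant or either double mutant library, with log2 fold changes of 3.65 to 4.04 for Runx1 and 2.92 to 2.98 for Runx3, and Runx3 also missed the threshold without either wild type library (adjusted p = 0.0666 and 0.0662). Without RUNX1 mutant replicate 1 or 2, Runx2 had 0.794 and 0.789, against 0.79 with all libraries. Tle3 then had -0.497 and -0.505, against -0.50 with all libraries. In double mutant against RUNX1 mutant HSPC, which differ by the CBL mutation, limma called 0 of 7 genes, with 3 under an unadjusted p of 0.05, as were 3624 of the 12421 genes tested, and 9.09% of all genes tested called. Runx3 had 1.68 ± 0.42 (adjusted p = 0.0537) and Runx1 1.42 ± 0.40 (adjusted p = 0.0694). Without the RUNX1 mutant replicate 1, both were called, with Runx3 at 2.44 (adjusted p = 9.85e-05) and Runx1 at 2.12 (adjusted p = 3.37e-04). Without replicate 2, Runx3 had 0.93 (adjusted p = 0.00732) and Runx1 0.72 (adjusted p = 0.0263). Both double mutant libraries exceeded both RUNX1 mutant libraries for each of these genes.

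The departure of the double mutant from the sum of the single mutant effects was tested as an interaction term over the same 8 libraries. By limma, 0 of 7 genes were called and 2 were under an unadjusted p of 0.05, as were 2398 of the 12421 genes tested, with 0.0161% of all genes tested called. The term was 1.58 ± 0.57 for Runx1 (SE, adjusted p = 0.203), 0.80 ± 0.60 for Runx3 (adjusted p = 0.494) and -1.50 ± 0.45 for Cbfa2t3 (adjusted p = 0.160). Without the RUNX1 mutant replicate 1 the term was 2.28 for Runx1 and 1.55 for Runx3, and without replicate 2 it was 0.89 for Runx1 and -1.95 for Cbfa2t3. Over all fits that left out 1 library, it ranged from 0.05 to 1.55 for Runx3 and from -1.95 to -1.06 for Cbfa2t3.

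**Figure D4:**
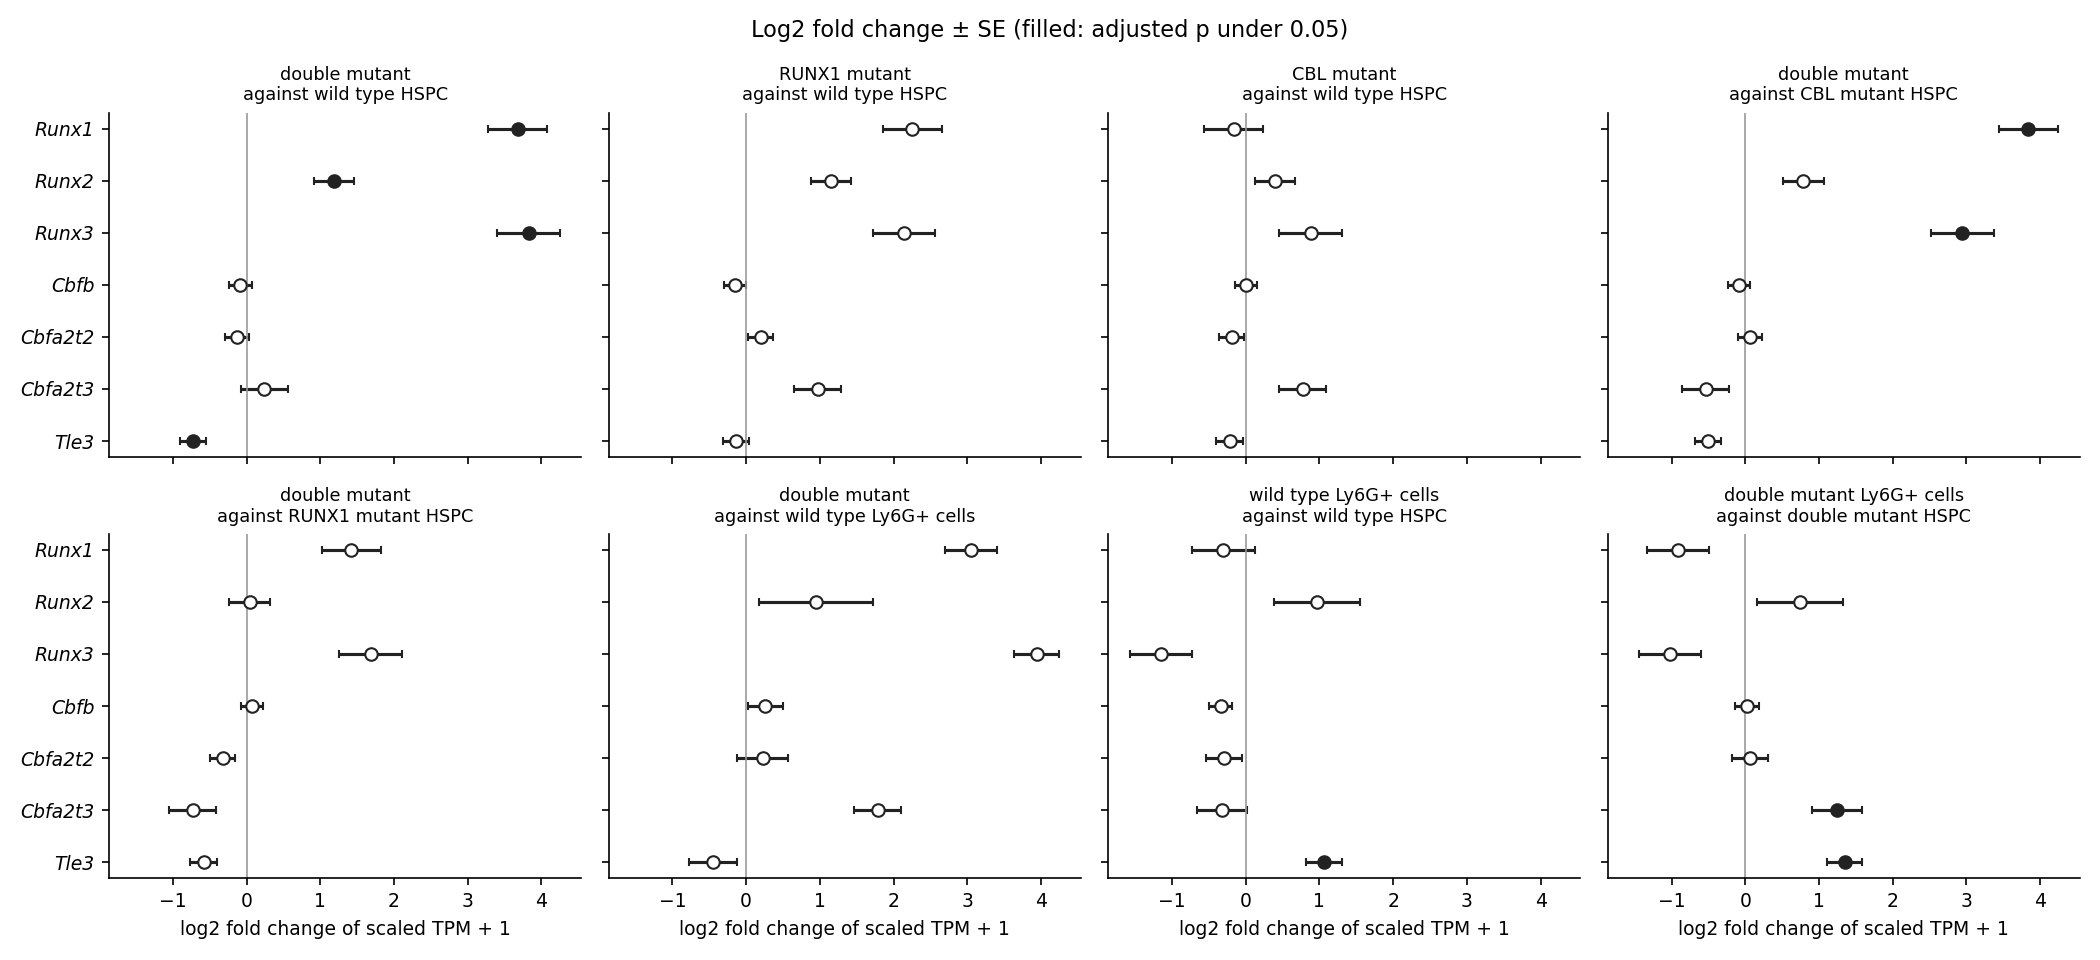
Log2 fold change of the 7 tested genes with its SE in the 8 comparisons of 2 groups, filled where the adjusted p is under 0.05. Runx1 and Runx3 stand at 3.68 and 3.82 in double mutant against wild type HSPC and at 3.05 and 3.94 in double mutant against wild type Ly6G+ cells, where no gene is called.

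In Ly6G+ cells, the double mutant had values of Runx1 and Runx3 far from those of wild type, but the test over 4 libraries called nothing. Limma called 0 of the 7 genes and 0% of all genes tested, with 3 of the 7 and 1656 of 11744 genes under an unadjusted p of 0.05. The log2 fold change was 3.94 ± 0.30 for Runx3 (SE, adjusted p = 0.162), 3.05 ± 0.36 for Runx1 (adjusted p = 0.211) and 1.78 ± 0.31 for Cbfa2t3 (adjusted p = 0.264). With the replicate number as a block, 1 gene was called, Runx3 (adjusted p = 0.0396). Without the double mutant replicate 1, Runx3 had 4.26 (adjusted p = 0.00175), Runx1 3.44 (adjusted p = 0.00346) and Cbfa2t3 1.41 (adjusted p = 0.0169), and Runx2 turned to -0.13. Without replicate 2, Runx3 had 3.577, Runx1 2.625, Cbfa2t3 2.121 and Runx2 2.02. Cell type markers differed in the same comparison, given here for replicates 1 and 2. Neutrophil markers summed to 85116 and 311090 TPM in double mutant Ly6G+ cells, against 403110 and 397080 TPM in wild type Ly6G+ cells, and HSPC markers to 599.6 and 96.1 TPM, against 53.4 and 48.4 TPM in wild type. The HSPC list shares Flt3 with the dendritic list, so the sums of these lists are not separate observations. Flt3 had 214.5 and 11.8 TPM in double mutant Ly6G+ cells, against 4.31 and 2.78 TPM in wild type. Megakaryocyte markers summed to 29.1 and 186 TPM in the double mutant, against 19.5 and 14.5 TPM in wild type, and B cell and plasma cell markers to 71.4 and 68.7 TPM, against 456 and 387 TPM in wild type. Within these lists, some genes went the other way. Gata2 had 1.23 and 4.11 TPM in the double mutant, against 6.84 and 4.87 TPM in wild type. In double mutant replicate 1, Pax5 had 25.5 TPM, against 9.42 and 4.615 TPM in wild type, and Cd79b 34.5 TPM, against 29.2 and 29.9 TPM. The part of the cells behind these markers in the values of Runx1 and Runx3 was not tested.

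The effect of both mutations was then compared between the populations, as a genotype by cell type term over all 12 libraries. By limma, 0 of 7 genes were called and 1 was under an unadjusted p of 0.05, as were 1283 of the 13155 genes tested, with 0.0684% of all genes tested called. The effect in Ly6G+ cells minus that in HSPC was -0.61 ± 0.60 for Runx1 (SE, adjusted p = 0.789) and 0.13 ± 0.60 for Runx3 (adjusted p = 0.956). For Cbfa2t3 it was 1.56 ± 0.48 (adjusted p = 0.328), and 1.91 (adjusted p = 0.0335) without the double mutant Ly6G+ replicate 2. An adjusted p that misses the threshold does not show that the effects were equal.

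Between the populations themselves, Tle3 rose in Ly6G+ cells in both genotypes. In wild type Ly6G+ cells against wild type HSPC, Tle3 had 1.06 ± 0.24 (SE, limma, adjusted p = 0.00921) and was the 1 gene of 7 called, against 39.1% of all genes tested. Its call ended without wild type HSPC replicate 1 (adjusted p = 0.0615) and without wild type Ly6G+ replicate 2 (adjusted p = 0.0666). Runx3 had -1.15 ± 0.42 (adjusted p = 0.0579), and was called without either RUNX1 mutant library and without either double mutant Ly6G+ library, at an adjusted p of 0.00781, 0.00619, 0.0320 and 0.0370. Runx2 had 0.96 ± 0.58 (adjusted p = 0.220), and was called without either double mutant Ly6G+ library, at an adjusted p of 0.0105 and 0.0132. In double mutant Ly6G+ cells against double mutant HSPC, Tle3 had 1.35 ± 0.24 (adjusted p = 0.00492) and Cbfa2t3 1.24 ± 0.34 (adjusted p = 0.0276), 2 of 7 genes against 28.7% of all genes tested. The call of Cbfa2t3 ended without double mutant HSPC replicate 2 (0.92, adjusted p = 0.189), without double mutant Ly6G+ replicate 1 (0.88, adjusted p = 0.0671) and on unscaled TPM (adjusted p = 0.118), and it had an adjusted p of 0.0508 with no filter. With the libraries of the compared groups alone, neither Tle3 nor Cbfa2t3 was called (adjusted p = 0.120 and 0.162). Without RUNX1 mutant replicate 1 or 2, Runx1 had -0.892 and -0.913 in this comparison, against -0.91 with all libraries. Runx3 then had -0.998 and -1.02, against -1.02 with all libraries.

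Runx1 and Runx3 share little transcript sequence. Of the 31-base words in their annotated transcripts, 12077 in Runx1 and 4927 in Runx3, the 2 genes share 9, and neither shares any with Runx2. Words of an introduced sequence were not analysed here, so whether reads of one were assigned to Runx1 or Runx3 was not tested. Over all 12 libraries, the gene most like Runx1 in its pattern was Runx3, with a Pearson correlation of 0.945 among 9208 genes compared, followed by Gramd3 at 0.941 and Extl3 at 0.926. The genes most like Runx3 were Gramd3 at 0.961, Extl3 at 0.959 and Pvr at 0.957. Gramd3 had 9.23 and 9.08 TPM in double mutant HSPC, against 1.49 and 1.82 TPM in wild type HSPC. Runx2 was most like Pik3r4 (0.95), Cbfb most like Cep55 (0.923), Cbfa2t2 most like Eef2k (0.905), Cbfa2t3 most like Rasa4 (0.977) and Tle3 most like Rab43 (0.989). These correlations describe 12 libraries that share 6 groups, and the groups set much of their size.

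Genes that work with RUNX proteins were taken as 5 lists. In double mutant against wild type HSPC, 2 of 16 partner transcription factors fell and none rose, while 11.1% of all genes tested were called, 566 higher and 812 lower. These were Ets1, a lymphoid and natural killer cell factor that binds DNA together with RUNX1, at -2.93 ± 0.37 (SE, limma, adjusted p = 0.0130), and Gata1, the erythroid and megakaryocyte factor, at -1.45 ± 0.29 (adjusted p = 0.0325). Of 14 tested target genes of RUNX1 in blood cells, 1 fell, Nfe2, a megakaryocyte factor, at -1.08 ± 0.17 (adjusted p = 0.0217). Nfe2 was not limited to megakaryocytes here, with 274.6 and 281.8 TPM in wild type Ly6G+ cells, against 136.1 and 128.2 TPM in wild type HSPC. Of 12 tested kinases, ligases and cyclins that act on RUNX proteins, 1 fell, the kinase gene Hipk1 at -1.18 ± 0.28 (adjusted p = 0.0437). Among the Groucho genes beside Tle3, 1 of 5 rose, Tle1 at 0.98 ± 0.22 (adjusted p = 0.0381). Among 6 tested coactivators, the arginine methyltransferase gene Carm1 rose by 0.62 (adjusted p = 0.0471) and the acetyltransferase gene Kat6a had -0.66 (adjusted p = 0.0405).

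The list medians in this comparison were 0.27 for the Groucho genes, -0.07 for coactivators, -0.09 for partner factors, 0.34 for targets and -0.30 for kinases, ligases and cyclins, against 0.02 for all genes tested. Ets1 is also expressed by natural killer cells. Nkg7, from their marker list, had 9.29 and 9.25 TPM in double mutant HSPC, against 178.5 and 179.5 TPM in wild type HSPC. Nkg7 was the 1 gene of the 6 natural killer and cytotoxic markers to reach 1 TPM in each of these libraries. It did not follow the rest of the list, being lower in wild type Ly6G+ cells (18.1 and 16.9 TPM) than in wild type HSPC. The other genes of the list, such as Klrb1c and Ncr1, were higher there. Nkg7 therefore does not give the amount of natural killer cells here. The part of such cells in the Ets1 value was not tested. All 7 calls ended without either wild type library and without double mutant replicate 2, and 6 of them, all but Gata1, also without double mutant replicate 1. All but Ets1 also ended without either CBL mutant library. Over these fits the highest adjusted p was 0.135 for Ets1, 0.170 for Nfe2 and 0.224 for Hipk1. On unscaled TPM the calls of Gata1, Hipk1 and Kat6a ended (adjusted p = 0.0735, 0.0727 and 0.831), and with no filter on low values those of all but Ets1 and Nfe2 did (adjusted p between 0.0662 and 0.0846). With the replicate number as a block Hipk1 had an adjusted p of 0.0517, and with RLE scaling Carm1 had 0.0501.

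**Figure D5:**
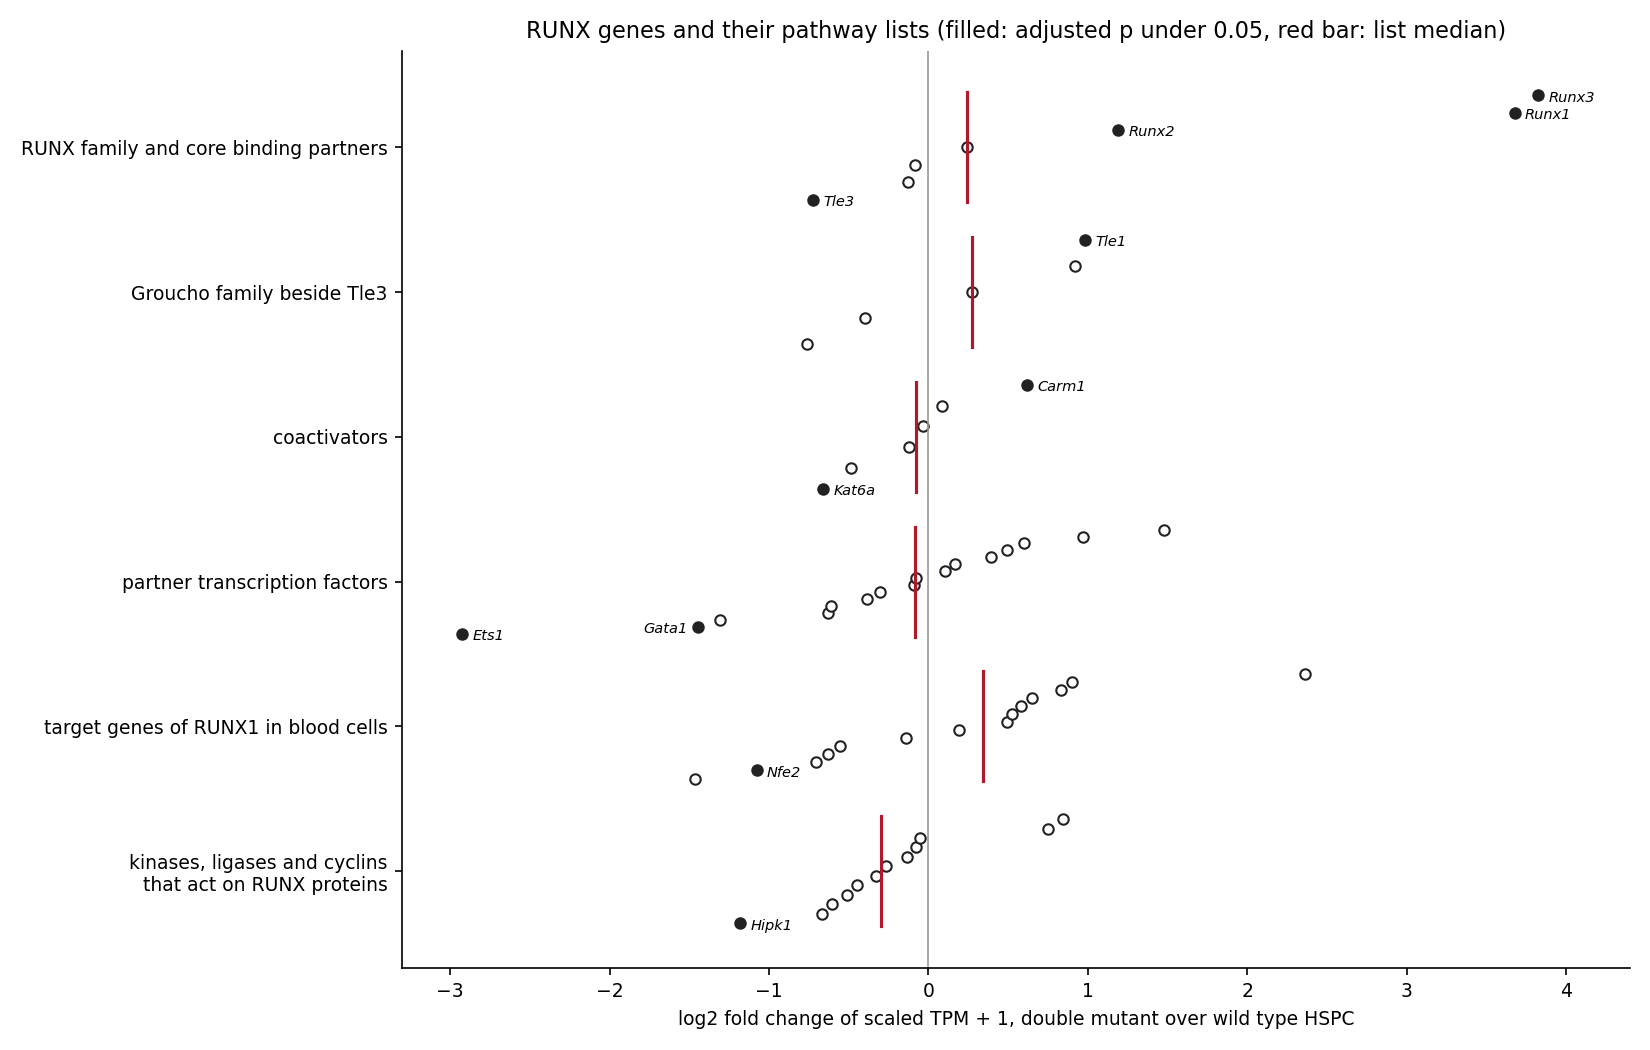
Log2 fold change in double mutant against wild type HSPC of each tested gene by list, filled where the adjusted p is under 0.05, with a bar at the list median. Runx1 and Runx3 lie at 3.68 and 3.82 on the right and Ets1 at -2.93 on the left.

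Fewer or about as many genes of these lists were called in each of the other HSPC comparisons. In CBL mutant against wild type HSPC the 1 gene called was the target Pf4, a platelet chemokine, at -3.41 ± 0.36 (SE, limma, adjusted p = 0.0144), and its call ended without either wild type or either CBL mutant library (highest adjusted p = 0.207). In double mutant against CBL mutant HSPC, Pf4 rose by 3.93 ± 0.36 (adjusted p = 0.00607), a call that ended without CBL mutant replicate 1 (adjusted p = 0.0700), while Tle1 rose by 1.15 and Ets1 had -2.56 (adjusted p = 0.0429 and 0.0209). In double mutant against RUNX1 mutant HSPC, 3 of 16 partner factors fell, Ets1, Fli1 and Tal1, with -1.97, -0.77 and -1.38 (adjusted p = 0.0296, 0.0440 and 0.0485). In the same comparison the coactivator gene Kat6a had -0.86 (limma, adjusted p = 0.0261). Of 14 targets tested, 2 fell, Csf3r at -0.79 and Trib2 at -1.19 (adjusted p = 0.0405 and 0.0407). Trib2 was near the floor, at 2.985 and 1.331 TPM in RUNX1 mutant HSPC and below 1 TPM in all other HSPC libraries. In this comparison 9.09% of all genes tested were called, 732 higher and 397 lower. All of these calls but those of Pf4 ended in 6 or more of the fits that left out 1 library, among them those without either wild type and either double mutant library. On unscaled TPM those of Kat6a, Fli1, Tal1, Csf3r and Trib2 against the RUNX1 mutant ended (adjusted p = 0.133, 0.178, 0.125, 0.102 and 0.0855). With no filter all calls against the RUNX1 mutant ended (adjusted p between 0.0526 for Kat6a and 0.0967 for Tal1). With only the libraries of the compared groups, those of Kat6a, Ets1, Fli1, Tal1 and Csf3r ended (adjusted p between 0.158 for Csf3r and 0.185 for Tal1). With the replicate number as a block, Fli1 had an adjusted p of 0.0537, and with a pseudocount of 0.1 Tal1 had 0.0508. Against the CBL mutant, Tle1 had an adjusted p of 0.0580 with the block, 0.0535 on unscaled TPM and 0.0691 with no filter, and Ets1 0.0501 with no filter. In RUNX1 mutant against wild type HSPC, in both interaction terms and in double mutant against wild type Ly6G+ cells, limma called 0 genes of the 5 lists. At an unadjusted p under 0.05, RUNX1 mutant against wild type HSPC had 3 of 5 Groucho genes, 4 of 16 partner factors, 3 of 14 targets, 1 of 6 coactivators and 0 of 12 kinases, ligases and cyclins, beside 2052 of the 12421 genes tested.

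Between wild type populations, 3 of the 6 tested coactivators rose in Ly6G+ cells and none fell, while 39.1% of all genes tested were called, 2158 higher and 2980 lower. They were Crebbp at 1.20 ± 0.19 (SE, limma, adjusted p = 0.00229), Kat6a at 0.93 ± 0.16 (adjusted p = 0.00352) and Ep300 at 1.12 ± 0.25 (adjusted p = 0.00932). The same 3 genes rose in double mutant Ly6G+ cells against double mutant HSPC, at 1.08, 1.38 and 0.99 for Crebbp, Kat6a and Ep300, while 28.7% of all genes tested were called, 1620 higher and 2151 lower. With the double mutant libraries alone none of the 3 was called (adjusted p = 0.123, 0.106 and 0.180). Crebbp and Kat6a were called in all 12 fits that left out 1 library in each genotype, while Ep300 lost its call without HSPC or Ly6G+ replicate 2 in wild type (highest adjusted p = 0.0771), and without either HSPC library or Ly6G+ replicate 2 in the double mutant (highest adjusted p = 0.108). Among targets, the granule enzyme genes Elane and Mpo fell in wild type Ly6G+ cells by 4.10 and 3.65 on the log2 scale, and the receptor gene Csf3r rose by 3.40. These 3 were called in all 12 of those fits. Of the 17 targets tested, 2 rose and 5 fell in Ly6G+ cells between double mutant populations, against 28.7% of all genes tested. Both that rose, Rag1 and Blk, lost their calls in 6 of the 12 fits that left out 1 library. Between wild type populations 3 targets rose and 3 fell, against 39.1% of all genes tested.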

How the data were processed

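Bone marrow RNA was sequenced in 12 libraries, 2 per group. The submitters' processing notes list kallisto, bcl2fastq and CASAVA 1.8, and the build mm10. The authors deposited TPM for 28987 genes, which sum to between 933370 and 981994 in each library and carry no read numbers, so depth and counting intervals are unknown. All 12 columns were used.

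TPM were scaled between libraries with unweighted trimmed mean factors (TMM, trimming 0.3 of log ratios and 0.05 of levels). Genes with 1 TPM or more in at least 2 libraries of a fit were kept, and limma 3.58.1 in R 4.3.3 was fitted to log2(TPM + 1), with group means, a trend and robust moderation. The pseudocount of 1 understates changes of low genes. The HSPC fit used 8 libraries (4 residual degrees of freedom, 12421 genes), the Ly6G+ fit 4 (2, 11744 genes) and comparisons across populations all 12 (6, 13155 genes). The fits were tested on simulated data. P-values measure the spread between libraries from individual mice.

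The 8 genes, the lists and the tests were chosen with earlier results of these data known. All 8 are named, with up to 3 called genes per list, direction and comparison, or, where none is called, the 2 genes of smallest p, and the 3 genes most correlated with each of the 7 tested. Some of these are given only as counts, and a list of further corepressors is not reported here. Samples with the same replicate number share no stated origin, so the fit with a replicate block is an alternative. The other alternatives were unscaled TPM, RLE scaling, a pseudocount of 0.1, no filter, fits of the compared groups alone leaving out each library and, chosen after seeing the data, leaving out both libraries that stand apart. Sequences and windows come from RefSeq (GRCm38.p6) and gene positions from GRCm38.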

Additional observations from a re-analysis of the deposited data

How the results depend on the processing

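The limits are those of 2 libraries per group and unknown depth. The number of genes of the set called changed with several settings. The share of all genes called under each setting is not given beside these numbers. They therefore describe how the calls moved and are not a result about the set. With the libraries of the compared groups alone it was 2 in CBL mutant against wild type HSPC, 4 in double mutant against CBL mutant HSPC, 4 between wild type populations and 0 between double mutant populations. With no filter it was 2 in double mutant against wild type HSPC and 1 between double mutant populations. A pseudocount of 0.1 gave 2 between wild type populations, and unscaled TPM gave 1 between double mutant populations. A fit without both libraries that stand apart, chosen after seeing the data, gave 4 between wild type populations, 4 between double mutant populations and 1 for the genotype by cell type term. Leaving out 1 library gave 0 to 1 called in CBL mutant against wild type HSPC, 0 to 4 in RUNX1 mutant against wild type, 0 to 4 in double mutant against wild type, 0 to 4 in double mutant against CBL mutant, 0 to 3 in double mutant against RUNX1 mutant, 0 to 3 for the sum of single mutants, 0 to 5 in Ly6G+ cells, 0 to 3 between wild type populations, 1 to 4 between double mutant populations and 0 to 1 for the genotype by cell type term.

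Directions turned on unscaled TPM, whose medians over all genes against wild type HSPC were 0.56 for double mutant, 0.45 for RUNX1 mutant and 0.33 for CBL mutant HSPC. They were 0.22 in double mutant against CBL mutant HSPC, -0.25 for the sum of single mutants and 0.58 in double mutant against wild type Ly6G+ cells. The genes called higher and lower in double mutant against wild type HSPC then numbered 3965 and 417, against 566 and 812 with scaling. Between wild type populations the numbers were 1919 and 1277 unscaled, against 2158 and 2980, and between double mutant populations 1365 and 1099, against 1620 and 2151. In CBL mutant against wild type HSPC, Runx1 turned to 0.22, Cbfa2t2 to 0.16, Tle3 to 0.18, Tle1 to 0.14 and Brpf1 to 0.25, and with RLE scaling Cbfb to -0.001. In RUNX1 mutant against wild type HSPC, Cbfb turned to 0.39, Tle3 to 0.39 and Brpf1 to 0.36. In double mutant HSPC, Cbfb turned to 0.54 and Cbfa2t2 to 0.41 against wild type, Cbfb to 0.14 against CBL mutant, and Cbfb to -0.25 for the sum of single mutants. In Ly6G+ cells, Tle3 turned to 0.15, Tle4 to 0.16 and Crebbp to 0.31. Without the libraries that stand apart, Runx2 turned to -0.34, Cbfb to -0.051 and Cbfa2t2 to -0.26 between double mutant populations. The cause was not tested.

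Leaving out 1 library also turned directions of values that missed the threshold. The log2 fold changes ranged from -0.346 to 0.029 for Runx1 and from -0.12 to 0.12 for Cbfb in CBL mutant against wild type HSPC, and from -0.311 to 0.015 for Cbfb and -0.39 to 0.12 for Tle3 in RUNX1 mutant against wild type. In the double mutant, they ranged from -0.062 to 0.561 for Cbfa2t3 against wild type HSPC, from -0.209 to 0.047 for Cbfb and -0.02 to 0.15 for Cbfa2t2 against CBL mutant, and from -0.084 to 0.227 for Cbfb and -0.40 to 0.48 for Runx2 against RUNX1 mutant. For the sum of single mutants they ranged from -0.093 to 0.227 for Cbfb, -0.800 to 0.075 for Runx2 and -0.01 to 1.01 for Pim1. In Ly6G+ cells they ranged from -0.13 to 2.02 for Runx2 and from -0.11 to 0.54 for Cbfa2t2. Between double mutant populations they ranged from -0.35 to 1.82 for Runx2, -0.069 to 0.10 for Cbfb and -0.27 to 0.40 for Cbfa2t2, and for the genotype by cell type term from -1.32 to 0.86 for Runx2, -0.21 to 0.46 for Runx3, -0.042 to 0.602 for Tle3 and -0.66 to 0.12 for Carm1. Same-numbered libraries of HSPC groups had replicate differences that correlated between -0.004 and 0.184 over genes, at 0.195 for the 2 Ly6G+ groups and at 0.463 for RUNX1 mutant HSPC with double mutant Ly6G+ cells. The fit with a replicate block called 1 gene of the set in double mutant against wild type Ly6G+ cells and kept the number called within 1.5 times in the other comparisons.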
